A study of Mus musculus with 31 samples.

Results

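RNA carried by polysomes was compared between the day of birth (postnatal day 0, P0) and embryonic day 13 (E13) in mouse neocortex whose genotype label reads HuR cKO. HuR is the product of Elavl1 and binds RNA, and cKO is taken to stand for conditional knockout. The comparison rests on 6 libraries of the 31 in the study, 3 from P0 and 3 from E13, taken by their age, genotype and fraction labels, and covers every gene of the table. The remaining libraries were monosome and total RNA of cKO cortex (10 libraries) and all 3 kinds of RNA from wild-type (WT) cortex (15 libraries), at the same ages and with 2 or 3 libraries a group. Lysates made with cycloheximide, which holds ribosomes on mRNA, were spun through gradients from which 14 fractions were collected. Fractions 9 to 12 were pooled as polysomes, fractions 4 to 7 as free subunits and single ribosomes (called monosome here), and poly(A) RNA was read in paired 100-base reads. The 6 polysome libraries share 1 genotype label, so the cKO applies to both ages. The labels name neither the Cre driver nor the deleted part of Elavl1, nor how many animals gave each library. Nothing in them says that libraries of a group came from separate animals, so p-values measure the spread between libraries, which may be technical.

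An mRNA bound by several ribosomes sediments deep in a gradient, so its level in the polysome pool reflects both how much of the mRNA is present and how much of it is being read by many ribosomes. At E13 the mouse neocortex consists largely of dividing radial glia, intermediate progenitors and the earliest neurons. By birth, neurons of all layers have been produced, axons and early synapses are growing, and the production of glia has begun. HuR binds U-rich and AU-rich stretches of mRNA and is known for effects on stability and translation, and its relatives Elavl2, Elavl3 and Elavl4 are markers of neurons.

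Values were FPKM, that is, fragments per unit of transcript length and of library size, so levels of different genes can be set side by side. Of 23258 named genes, 12302 had a mean of at least 1 FPKM over the 16 cKO libraries and were tested. Every difference below is the mean of log2(FPKM + 1) at P0 minus that at E13, with its standard error (SE) from the limma fit; the added 1 understates the change of genes near 0. A gene was called higher or lower where its limma p, adjusted over all tested genes by Benjamini-Hochberg, was under 0.05.

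The polysome libraries listed between 13340 and 16377 genes above 0, with FPKM sums between 485791 and 685667. The number of reads is not given in the sources used here, so the depth behind each value is unknown. Across the tested genes, Pearson's r of log2(FPKM + 1) lay between 0.931 and 0.991 for libraries of the same age and between 0.737 and 0.792 for libraries of different ages. E13 library 0 (libraries are named by the column numbers 0, 1 and 2, and values are given in that order) stood apart. It listed the fewest genes, and embryonic globins took its highest share of signal: the 12 erythroid genes made up 5.75% of its FPKM sum, against 3.59% and 2.54% in the other E13 libraries and 0.0482% to 0.0675% at P0. Results are therefore also given without E13 library 0 where this changed a count by over 1.5 times. Markers of the labelled tissue were present at both ages. Tbr1, a transcription factor of cortical projection neurons, stood between 18.2 and 44.0 FPKM in all 6 libraries.

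Elavl1 mRNA was present in all 16 cKO libraries, and its polysome level was lower at P0. In polysome RNA it stood at 28.3, 29.9 and 29.996 FPKM at E13 and at 15.99, 19.003 and 22.6 FPKM at P0, so the groups did not overlap. The log2 difference was −0.60 ± 0.21 (SE, n = 3 and 3, limma adjusted p = 0.0193), and it missed the threshold without E13 library 2 (adjusted p = 0.0521) or without P0 library 0 (adjusted p = 0.099). In cKO total RNA Elavl1 stood at 55.4 and 42.5 FPKM at E13 and at 17.8, 25.1 and 28.5 FPKM at P0. In cKO monosome RNA it stood at 83.9, 80.0 and 82.0 FPKM at E13 and at 29.9 and 24.5 FPKM at P0. The gene lies at chr8:4284781-4325140 (RefSeq, GRCm38.p6). Since the deleted part is not given in the sources used here, a value summed over the whole gene does not check the deletion, and levels cannot be set against the WT table, which was scaled separately. In WT polysome RNA the log2 difference of Elavl1 was −1.10, and the difference between the genotypes, 0.50 ± 0.40, did not pass the test (limma adjusted p = 0.57).

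The other members of the family, which bind similar sequences and are found in neurons, were all higher at P0. Elavl3 went from 15.0, 5.12 and 15.9 FPKM at E13 to 138, 142 and 99.001 FPKM at P0, a log2 difference of 3.41 ± 0.33 (limma adjusted p = 9.57e-08). Elavl2 had 19.1, 11.5 and 20.5 FPKM at E13 and 45.4, 50.3 and 43.6 FPKM at P0 (log2 difference 1.43 ± 0.26, adjusted p = 0.000155). Elavl4 had 9.78, 6.72 and 13.4 FPKM at E13 and 25.3, 25.4 and 18.2 FPKM at P0 (log2 difference 1.16 ± 0.26, adjusted p = 0.00113). For each of these 3 genes the lowest P0 library lay above the highest E13 library. In WT polysome RNA, of the 4 family members including Elavl1, 1 was called higher, 1 lower and 2 not called. Among all genes in WT, 21.9% were called higher and 31.7% lower. The difference between the genotypes was called for 0 of the 4, where 0.654% of all genes were called, which does not show that the genotypes were equal.

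Polysome RNA differed between the ages for most genes. Of the 12302 tested, 7000 were called (56.9%), 3740 higher at P0 (30.4%) and 3260 lower (26.5%). The median log2 difference over all genes was 0.04, with quartiles of −0.69 and 0.83. A log2 difference of at least 2 was reached by 900 of the higher and 595 of the lower genes, and of at least 4 by 79 and 24. The 3 P0 libraries all lay above the 3 E13 libraries for 34.6% of the tested genes and all below them for 31% of them. Of the 6987 called genes that could be tested without E13 library 0, 88.9% stayed called in the same direction and none changed sign.

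The largest increases were in genes of neurons. Camk2b, a subunit of the calcium/calmodulin kinase of synapses (chr11:5969629-6066357), had 0.726, 2.83 and 1.71 FPKM at E13 and 256, 235 and 250 FPKM at P0, a log2 difference of 6.57 ± 0.47 (adjusted p = 2.38e-09). Dync1i1, an intermediate chain of the dynein motor found in neurons (chr6:5725600-6028039), had 0.0413, 1.79 and 0.407 FPKM at E13 and 134, 134 and 141 FPKM at P0 (6.43 ± 0.35). Neuropeptide Y (Npy) had 0.269, 2.45 and 1.11 FPKM at E13 and 169, 104 and 109 FPKM at P0 (5.90 ± 0.36). In all of these the E13 levels were near or below 3 FPKM, and every P0 library was far above them. Mapt, which encodes the axonal microtubule protein tau (chr11:104229409-104332090), had 4.64, 12.3 and 10.6 FPKM at E13 and 565, 552 and 529 FPKM at P0 (5.85 ± 0.40, adjusted p = 1.49e-09). Mef2c, an activity-dependent transcription factor of cortical neurons, had 0.82, 1.14 and 1.33 FPKM at E13 and 109, 104 and 105 FPKM at P0 (5.68 ± 0.30). Snap25, a subunit of the vesicle fusion complex, had 3.64, 2.73 and 4.07 FPKM at E13 and 223, 261 and 136 FPKM at P0 (5.50 ± 0.28). The remaining 6 of the 12 largest increases were Sybu, which links synaptic cargo to kinesin (log2 difference 5.87), Sla (5.73), Prkar1b, a regulatory subunit of protein kinase A in brain (5.47), the neuronal splicing factor Rbfox1 (5.42), Ndrg1 (5.27) and Psd (5.24).

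The largest decreases joined blood, growth and patterning genes. The embryonic globin Hbb-y had 18876, 10799 and 8242 FPKM at E13 and 0.874, 0 and 2.56 FPKM at P0 (log2 difference −12.62 ± 0.55), and Hba-x (−12.28) and Hbb-bh1 (−10.61) followed. Outside the globins the lowest was Hmga2, a chromatin protein of fetal stem cells (chr10:120361268-120476469), with 367, 132 and 182 FPKM at E13 and 0.153, 0.0154 and 0.143 FPKM at P0. Its log2 difference of −7.56 ± 0.28 had the smallest adjusted p of all genes (5.69e-12). Crabp2, a retinoic acid carrier, had 572, 304 and 312 FPKM at E13 and 7.13, 11.1 and 8.43 FPKM at P0 (−5.28 ± 0.30). Ube2c, which starts the destruction of mitotic cyclins, had 522, 376 and 395 FPKM at E13 and 13.9, 15.8 and 15.4 FPKM at P0 (−4.74 ± 0.25). Wnt8b, a Wnt ligand of the medial embryonic cortex, had 26.0, 42.7 and 25.1 FPKM at E13 and 0.191, 0.290 and 0.243 FPKM at P0 (−4.66 ± 0.23). That the ages do not overlap was part of the rule that chose the 12 largest increases and decreases. The other 5 of the 12 largest decreases were the junction protein Jam3 (log2 difference −4.94), Lrrn1 (−4.67), Wfdc2 (−4.52), the imprinted gene Mest (−4.36) and the lactate transporter Slc16a3 (−4.34).

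**Figure D1:**
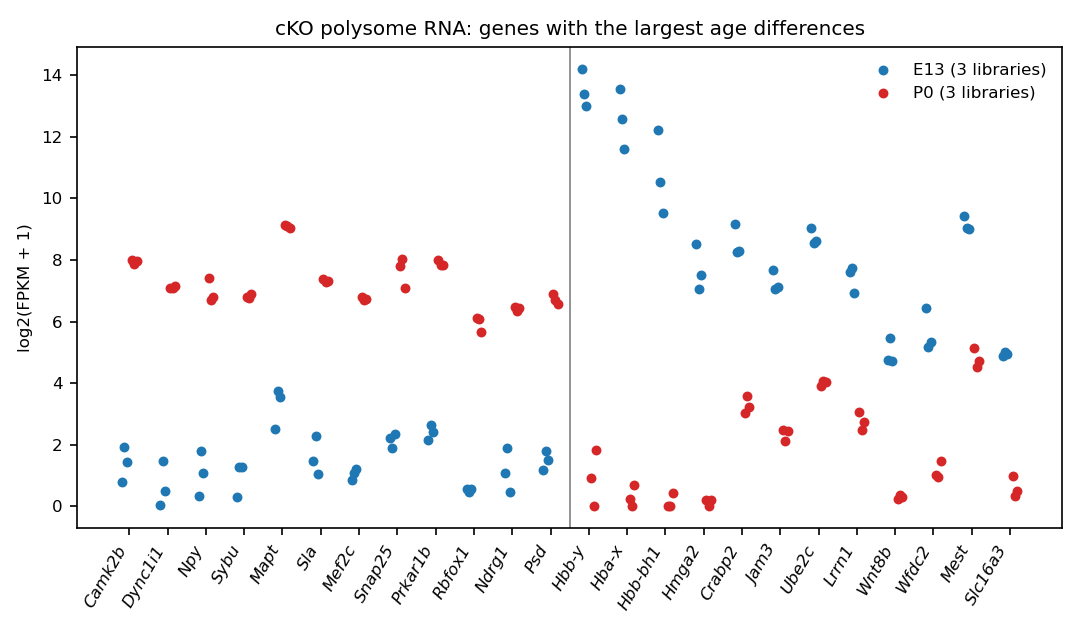
Polysome level, as log2(FPKM + 1), of the 12 genes with the largest increases and the 12 with the largest decreases, with 1 point for each of the 3 E13 and 3 P0 cKO libraries. The 24 genes were chosen among called genes whose ages do not overlap. Camk2b lies at 2.83 FPKM or less at E13 and at 235 FPKM or more at P0. Hmga2 lies at 132 FPKM or more at E13 and at 0.153 FPKM or less at P0.

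The most abundant mRNAs of P0 polysomes were those of the cytoskeleton and of basic cell functions, led by Tuba1a, Stmn1, Ppia, Tubb2b, Cfl1, Actg1, Eef1a1, Ptma, Tubb3 and Calm2. Stmn1, a regulator of microtubules in young neurons, was at 7287, 8054 and 7643 FPKM at P0 (log2 difference 1.57 ± 0.28), and the neuronal β-tubulin Tubb3 at 2577, 2374 and 2164 FPKM (2.52 ± 0.34). At E13 the globins Hbb-y and Hba-x led, followed by Ppia, Eef1a1, Ptma, Gapdh and the ribosomal protein genes Rpl11, Rpl7a, Rps9 and Rpl32. Ppia, which folds proteins, had 8634, 5226 and 5892 FPKM at E13 and 5301, 6837 and 5545 FPKM at P0, and was not called.

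Genes of dividing progenitors were lower at P0. In bulk cortex, fewer cells of a type and less RNA per cell cannot be told apart, which holds for every list below. List counts in polysome RNA are to be read against the 30.4% of all genes called higher and the 26.5% called lower. All 27 DNA replication genes tested were called lower (median log2 difference −1.92, against 0.04 over all genes), and so were 23 of 25 mitosis genes (median −2.41), with none higher in either list. Both lists together took 0.548% to 0.806% of the polysome FPKM sum at E13 and 0.128% to 0.152% at P0. Tyms, which makes the thymidine for DNA synthesis, had 59.97, 63.9 and 55.9 FPKM at E13 and 6.00, 6.54 and 5.52 FPKM at P0 (log2 difference −3.12 ± 0.21). Gins2, a subunit of the replicative helicase, changed by −3.46 ± 0.25 on the log2 scale. The mitotic kinase Cdk1 had 83.2, 124 and 96.6 FPKM at E13 and 8.02, 11.0 and 10.5 FPKM at P0 (−3.23 ± 0.24), and Birc5, the survivin of the dividing chromosome, changed by −4.03 ± 0.26. These levels at P0 were low in all 3 libraries and nowhere at 0.

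Of 16 regulators of the G1 phase, 12 were called lower and 2 higher. Cyclin D1 (Ccnd1), which drives entry into the cycle, had 135, 178 and 156 FPKM at E13 and 18.95, 21.2 and 20.6 FPKM at P0 (log2 difference −2.88 ± 0.20), and the kinase Cdk2 changed by −3.14 ± 0.18. The 2 higher members both restrain the cycle. The inhibitor Cdkn1b (p27) had 32.5, 37.3 and 51.8 FPKM at E13 and 75.4, 74.5 and 70.1 FPKM at P0 (0.87 ± 0.26, adjusted p = 0.00773), and the retinoblastoma gene Rb1 changed by 0.81 ± 0.25 (adjusted p = 0.0105).

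Markers of radial glia, the stem cells of the cortex, split. Of 21 tested, 14 were called lower and 5 higher (median log2 difference −1.67). Among the lower, Prom1 had 23.4, 36.2 and 28.5 FPKM at E13 and 3.21, 2.27 and 2.85 FPKM at P0 (−2.99 ± 0.24), and the patterning factors Gli3 (−2.78), Dach1 (−2.83) and Emx2 (−2.68) also fell. Pax6, which keeps radial glia in their state, had 33.3, 67.0 and 63.3 FPKM at E13 and 13.5, 14.0 and 14.4 FPKM at P0 (−1.83 ± 0.23), and Sox2 changed by −1.67 ± 0.19. The 5 higher members are genes that radial glia share with astrocytes. Fabp7, a fatty acid carrier, had 592, 309 and 512 FPKM at E13 and 1346, 1936 and 1238 FPKM at P0 (1.70 ± 0.28), and Tnc (1.97), Aldoc (1.96), Ptn (1.62) and the glutamate transporter Slc1a3 (1.43) were higher too. The summed FPKM of the list, of which Fabp7 made up the largest amount at P0, did not follow its median: it was 1774 to 2000 at E13 and 1916 to 2669 at P0.

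Intermediate progenitors, which divide once more to give neurons, showed 9 of 12 markers lower and 1 higher. Neurog2, which commits progenitors to neurons, had 53.1, 94.6 and 88.6 FPKM at E13 and 5.00, 5.18 and 5.77 FPKM at P0 (log2 difference −3.62 ± 0.28). Neurog1 had 8.71, 12.6 and 10.8 FPKM at E13 and was listed at 0 in 2 of the 3 P0 libraries (0, 0 and 0.104 FPKM). Eomes, the defining factor of the type, fell by less, from 17.2, 26.8 and 31.7 FPKM to 11.6, 11.0 and 12.2 FPKM (−1.02 ± 0.27, adjusted p = 0.00411). Nhlh1 (−3.46), Mfng (−2.68), Btg2 (−2.64), Dll1 (−2.07), Gadd45g (−1.72) and Dll3 (−1.47) made up the rest of the lower members on the log2 scale. The higher member, Insm1 (1.23 ± 0.39), missed the threshold without E13 library 0 (0.70, adjusted p = 0.0828); it had 5.12, 18.2 and 17.3 FPKM at E13 and 33.2, 26.7 and 28.4 FPKM at P0. The summed level of the 12 markers was 421.6 to 466.3 FPKM at E13 and 177.3 to 179.1 FPKM at P0.

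Signalling pathways of progenitors were also mostly lower. The Notch pathway keeps neighbours of newborn neurons undifferentiated, and 14 of its 19 tested members were lower and 2 higher. Its effector Hey1 had 87.8, 77.9 and 84.2 FPKM at E13 and 12.4, 14.5 and 13.3 FPKM at P0 (log2 difference −2.55 ± 0.18), the fringe enzyme Lfng changed by −3.20 ± 0.26, and the effector Hes1 had 28.2, 35.5 and 33.4 FPKM at E13 and 3.31, 5.54 and 4.19 FPKM at P0 (−2.66 ± 0.30). The higher members were the fringe enzyme Rfng (1.37) and the Notch antagonist Numbl (1.05). Of 25 Wnt pathway genes, 21 were lower and 1, the secreted Dkk3 (1.28), was higher; Dkk3 missed the threshold without P0 library 0 (adjusted p = 0.0554). The receptor Fzd2 had 43.2, 46.5 and 44.4 FPKM at E13 and 1.62, 1.07 and 1.34 FPKM at P0 (−4.29 ± 0.22), and the nuclear effector Tcf7l1 changed by −3.24 ± 0.21. In retinoic acid and fibroblast growth factor (FGF) signalling the members parted, with 8 of 16 lower and 5 higher. The receptors Fgfr3 (−4.09), Fgfr2 (−2.59) and Fgfr1 (−1.75) fell, as did Crabp2 above. Aldh1a2, which makes retinoic acid, had 0, 0.974 and 0.418 FPKM at E13 and 16.8, 18.6 and 16.5 FPKM at P0 (3.70 ± 0.24), and Cyp26b1, which breaks it down, also rose (1.80 ± 0.23).

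**Figure D2:**
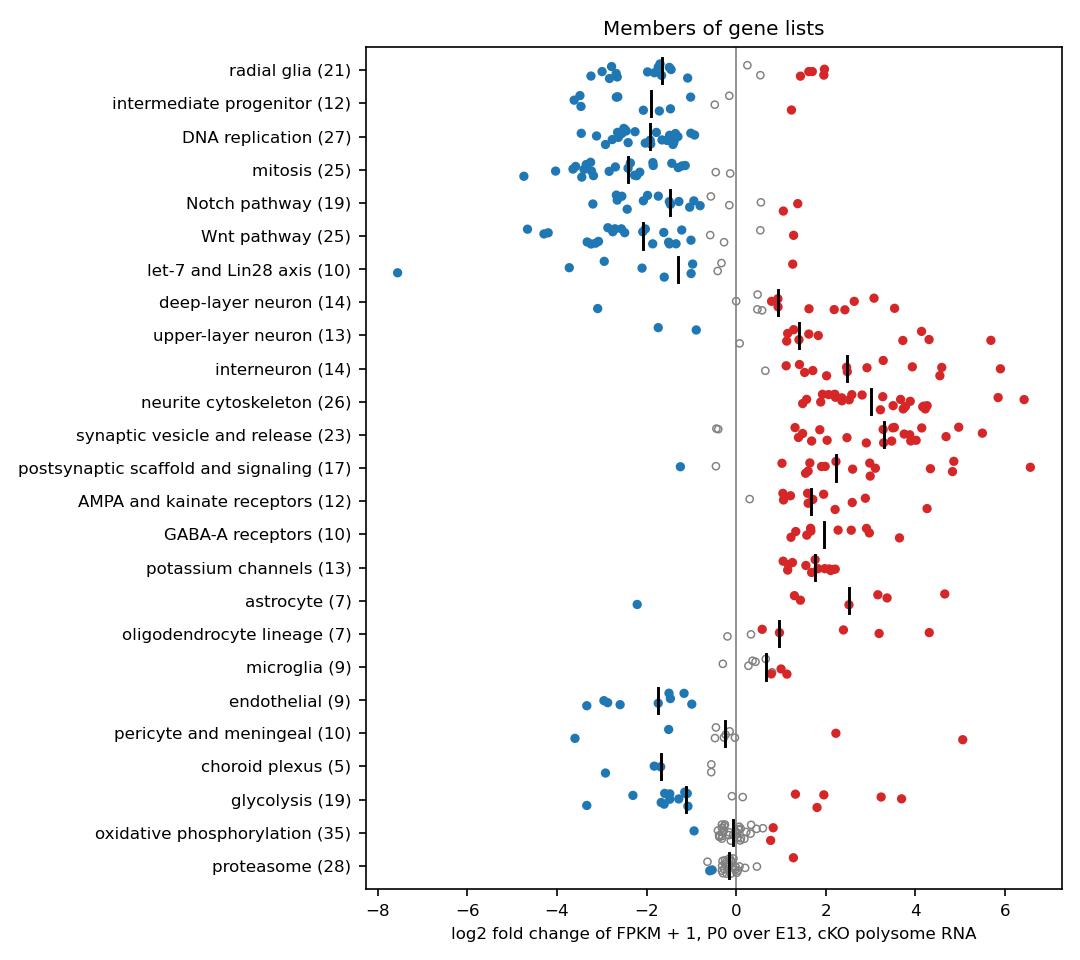
Difference in cKO polysome RNA (mean log2(FPKM + 1), P0 minus E13) of every tested member of 25 gene lists, 1 point per gene. Red points were called higher, blue points lower and open grey points not called; the black bar is the median of a list, which lies at −1.92 for DNA replication, −2.41 for mitosis, 3.29 for synaptic vesicle genes and 3.02 for the neurite cytoskeleton.

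Markers of cortical neurons were mostly higher at P0, with exceptions in both the upper-layer and the deep-layer lists. Of 13 upper-layer markers tested, 10 were higher and 2 lower. Pou3f1, a POU-domain transcription factor, had 0.725, 1.61 and 1.85 FPKM at E13 and 40.1, 42.3 and 38.2 FPKM at P0 (log2 difference 4.14 ± 0.26, adjusted p = 4.85e-10). Mef2c, given above, and Lmo4 (3.72) rose with it, and Lhx2, which progenitors also express, fell from 351, 166 and 270 FPKM to 69.4, 81.3 and 72.8 FPKM (−1.74 ± 0.29). Of 14 deep-layer markers, 9 were higher and 1, Nxph4, lower (−3.09). Bcl11b (Ctip2), which specifies neurons that project below the cortex, had 2.68, 4.10 and 4.88 FPKM at E13 and 18.9, 22.8 and 21.02 FPKM at P0 (2.19 ± 0.23), and Crym changed by 3.54 ± 0.35. The early deep-layer factors Tbr1 and Fezf2 were not called. Tbr1 had 18.2, 32.5 and 41.7 FPKM at E13 and 44.0, 39.7 and 39.5 FPKM at P0 (0.48 ± 0.30, adjusted p = 0.179). Fezf2 had 60.5, 27.0 and 46.0 FPKM at E13 and 44.9, 43.9 and 38.2 FPKM at P0, with overlapping ages (adjusted p = 0.999).

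Interneurons, which enter the cortex from the ganglionic eminences, were represented by 14 markers, of which 13 were higher and none lower (median log2 difference 2.47). Lhx6, the factor of interneurons born in the medial eminence, had 0.273, 0.636 and 0.309 FPKM at E13 and 31.7, 32.4 and 30.8 FPKM at P0 (4.55 ± 0.20, adjusted p = 2.16e-11). The GABA-making enzyme Gad1 had 0.0336, 0.546 and 0.457 FPKM at E13 and 17.0, 22.5 and 18.5 FPKM at P0 (3.93 ± 0.26). Somatostatin (Sst) had 0, 1.001 and 0.138 FPKM at E13 and 32.6, 34.3 and 25.7 FPKM at P0 (4.59 ± 0.37). The summed level of the list was 34.14 to 73.95 FPKM at E13 and 353.6 to 418.5 FPKM at P0. Among markers of the eminences and the striatum, 5 of 10 were tested, and 1 (3 without E13 library 0), the striatal phosphoprotein Ppp1r1b, was called, with 1.098, 0.826 and 2.19 FPKM at E13 and 41.9, 36.3 and 35.9 FPKM at P0 (4.08 ± 0.26). Cajal-Retzius markers, of the earliest neurons under the surface, had 3 of 6 higher and 2 lower, the latter led by Ebf2 (−2.75 ± 0.20).

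The cytoskeleton of axons and dendrites rose as a whole. All 26 tested members were called higher (median log2 difference 3.02), and together they took 0.747%, 1.502% and 1.288% of the polysome FPKM sum at E13 and 6.55%, 6.08% and 6.28% at P0. Stmn2, which regulates microtubules in growth cones, had 91.4, 113 and 139 FPKM at E13 and 1703, 1650 and 1347 FPKM at P0 (3.78 ± 0.26). Gap43, a growth cone membrane protein, had 54.8, 69.3 and 73.6 FPKM at E13 and 1340, 1480 and 953 FPKM at P0 (4.22 ± 0.29, adjusted p = 1.63e-09). The α-tubulin Tuba1a was the most abundant mRNA of P0 polysomes, with 802, 3206 and 2159 FPKM at E13 and 10319, 8268 and 8810 FPKM at P0 (2.36 ± 0.40). E13 library 0 lay lowest for Tuba1a. Without it all 26 members were still called higher.

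Genes of transmitter release were higher in 21 of 23 cases, with none lower (median log2 difference 3.29). Besides Snap25, the fusion protein Stx1a had 7.24, 8.13 and 6.23 FPKM at E13 and 115, 116 and 96.6 FPKM at P0 (3.75 ± 0.21). The vesicle protein Vamp2 had 24.0, 30.7 and 22.6 FPKM at E13 and 287, 282 and 326 FPKM at P0 (3.49 ± 0.20), and the vesicle GTPase Rab3a changed by 4.14 ± 0.25. On the receiving side of the synapse 15 of 17 genes were higher and 1 was lower. Dlg2, a scaffold that anchors glutamate receptors, had 0.536, 0.698 and 0.591 FPKM at E13 and 55.3, 39.6 and 43.3 FPKM at P0 (4.86 ± 0.22). Its relative Dlg4 (PSD-95) had 10.4, 22.3 and 18.8 FPKM at E13 and 135, 131 and 144 FPKM at P0 (2.98 ± 0.25). The paralog Dlg1, a scaffold also used by epithelia, went the other way, from 23.7, 20.2 and 19.6 FPKM to 9.11, 8.39 and 7.50 FPKM (−1.25 ± 0.20).

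Receptors for glutamate and GABA rose from levels that were mostly below 3 FPKM at E13. Of 12 AMPA and kainate receptor genes and their auxiliary subunits, 11 were higher and none lower. The AMPA subunit Gria1 had 0, 0.144 and 0.202 FPKM at E13 and 25.02, 19.4 and 17.2 FPKM at P0 (log2 difference 4.26 ± 0.27). Its partner Gria2, which sets calcium permeability, had 0.713, 0.241 and 0.667 FPKM at E13 and 7.15, 5.58 and 5.51 FPKM at P0 (2.21 ± 0.32). Of 7 NMDA receptor genes, 4 did not pass the filter on low values, and the 3 that were tested were higher. They were led by the obligatory subunit Grin1 with 0.237, 0.658 and 0.440 FPKM at E13 and 21.1, 13.1 and 16.4 FPKM at P0 (3.61 ± 0.36). Grin2b was listed at 0 in all 3 E13 libraries and at 1.75, 0.699 and 1.80 FPKM at P0, and its call (adjusted p = 0.0376) was lost without each single library except P0 library 1. Of 6 tested genes of metabotropic glutamate receptors and their Homer scaffolds, 5 were higher. The other was lower, but not without E13 library 0, P0 library 1 or P0 library 2. All 10 GABA-A receptor genes tested were higher (median log2 difference 1.97), and 3 did not pass the filter. The α5 subunit Gabra5 had 0.616, 0.445 and 0.0932 FPKM at E13 and 21.3, 15.8 and 12.4 FPKM at P0 (3.64 ± 0.29). The filter used the mean over all 16 cKO libraries, so genes near 0 at E13 passed it only through P0. Counts of such receptor and channel genes are therefore not a test of direction.

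The action of GABA on a neuron depends on its chloride pumps, and these parted. Slc12a5 (KCC2), which exports chloride from mature neurons, had 0, 0.539 and 0.239 FPKM at E13 and 3.98, 3.55 and 4.06 FPKM at P0 (log2 difference 1.97 ± 0.33, adjusted p = 6.1e-05). Slc12a2 (NKCC1), which imports it, had 3.05, 5.43 and 5.13 FPKM at E13 and 5.77, 4.42 and 4.12 FPKM at P0, with overlapping ages (0.08 ± 0.30, adjusted p = 0.839). At P0 the highest library of Slc12a5 (4.06 FPKM) lay close to the lowest of Slc12a2 (4.12 FPKM), so the 2 are not ranked. Voltage-gated channels mostly rose as well, in 13 of 13 tested potassium channel genes, 5 of 6 sodium channel genes and 10 of 14 calcium channel genes. Another 6 potassium and 2 sodium channel genes did not pass the filter on low values. Of the calcium channel genes 1 was lower, but none without E13 library 1, P0 library 1 or P0 library 2. Kcnc1, a potassium channel of fast-spiking cells, had 0.389, 0.752 and 0.664 FPKM at E13 and 6.35, 5.01 and 6.99 FPKM at P0 (2.15 ± 0.23). The auxiliary sodium channel subunit Scn3b had 1.66, 4.33 and 4.95 FPKM at E13 and 54.0, 32.3 and 40.1 FPKM at P0 (3.27 ± 0.34).

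Adhesion and guidance genes were less uniform. Of 19 synaptic adhesion genes, 14 were higher and 3 lower. The presynaptic organizer Nrxn2 had 3.17, 6.04 and 5.53 FPKM at E13 and 34.4, 24.4 and 26.0 FPKM at P0 (log2 difference 2.33 ± 0.32). Cntnap2, a neurexin relative of axons, had 164, 97.2 and 129 FPKM at E13 and 17.5, 17.2 and 17.1 FPKM at P0 (−2.81 ± 0.21, adjusted p = 5.2e-09). Of 33 axon guidance genes, 16 were higher and 6 lower (median 0.84). Sema7a (2.74), Plxna4 (2.65) and the semaphorin receptor Nrp1 (2.37) rose, and the ephrin Efnb1 fell from 75.1, 148 and 105 FPKM to 20.8, 12.6 and 15.9 FPKM (−2.64 ± 0.26), with the netrin receptor Unc5b (−2.31) and the ephrin receptor Ephb2 (−1.59).

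Astrocyte markers were mostly higher and endothelial markers lower, while other glial and mural lists were mixed. Of 7 astrocyte markers tested, 6 were higher. Gfap, the filament protein that defines astrocytes, had 0, 0.437 and 0.0229 FPKM at E13 and 26.6, 33.0 and 24.1 FPKM at P0 (log2 difference 4.66 ± 0.25), Aldh1l1 changed by 3.37 ± 0.26, and the gap junction gene Gja1, which radial glia also use, fell (−2.21 ± 0.27). In the oligodendrocyte lineage 5 of 7 markers were higher, and 3 without E13 library 1, P0 library 0 or P0 library 2. Olig1 had 0, 0.865 and 1.05 FPKM at E13 and 27.6, 36.2 and 27.0 FPKM at P0 (4.31 ± 0.31), and Sox10, at 0, 0.0243 and 0.138 FPKM at E13, reached 4.95, 4.14 and 4.52 FPKM at P0. The myelin markers Mag and Mog did not pass the filter on low values. Microglial markers had 3 of 9 higher, a share near the 30.4% of all genes, by log2 differences of at most 1.13 (Trem2). All 9 endothelial markers were lower (median −1.74), against 5 in total RNA (23.2% of all genes) and 2 in monosome RNA (22.4%). The glucose transporter Slc2a1 of the vessel wall had 40.1, 110 and 72.6 FPKM at E13 and 6.62, 4.83 and 6.33 FPKM at P0 (−3.33 ± 0.32), and Pecam1 changed by −2.87 ± 0.36. Of 10 pericyte and meningeal markers, 2 were higher, 2 lower (1 without E13 library 1) and 6 not called, with a median of −0.25. Choroid plexus markers had 3 of 5 lower, and the transthyretin gene Ttr varied between libraries of 1 age, with 156, 258 and 92.4 FPKM at E13 and 12.4, 288 and 310 FPKM at P0. Erythroid genes were lower in 11 of 12 cases, with a summed level of 13600 to 39450 FPKM at E13 and 244.9 to 351.8 FPKM at P0. As these markers moved with age, their part in the differences of other genes was not tested.

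Ribosomal protein genes had the most uniform decrease among abundant mRNAs. Of the 49 large-subunit genes 42 were called lower, of the 33 small-subunit genes 32, and none higher, with median log2 differences of −1.18 and −1.28. Together they took 24.25%, 18.82% and 19.2% of the polysome FPKM sum at E13 and 11.09%, 10.55% and 9.387% at P0. These mRNAs are known for a tract of pyrimidines (C and T) at the very start, the 5′ TOP motif, through which the mTOR pathway controls their translation. The 30 bases around the annotated start (14 before it) of the 4 genes with the smallest adjusted p that have an entry are printed to show the pyrimidines there, from the RefSeq promoter table (GRCm38.p6), with the longest run of pyrimidines in capitals. Rps27l has 2 entries. The marked runs mostly are not that motif: only Rps6 has a C at the annotated start followed by 5 pyrimidines. The run of Rpl22l1 begins 1 base after the start and that of Rpl27a spans it, while both runs of Rps27l end 4 bases before it.
Rpl22l1, chr3:28805494-28805523, plus strand: tgcggcgcaagcccgTTCTCTTCCCacggc
Rps27l, chr9:66946072-66946101, plus strand: caCTCCTCCCCgccgcctctatcccggaag
Rps27l, chr9:66946399-66946428, plus strand: ccatgggCTTCagggtcactaacgggcctc
Rpl27a, chr7:109519181-109519210, plus strand: acttcgtgagCTCCTCCCTTTTCCCTTTCT
Rps6, chr4:86857352-86857381, minus strand: agcggaagtcgggCCTCTTTTTCgtgacgc

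Rpl22l1 had 831, 328 and 400 FPKM at E13 and 78.3, 83.9 and 72.0 FPKM at P0 (log2 difference −2.60 ± 0.31, adjusted p = 1.18e-06). Rps27l, a paralog of Rps27, had 246, 149 and 95.0 FPKM at E13 and 32.4, 35.8 and 29.1 FPKM at P0 (−2.20 ± 0.35). Rpl27a had 1158, 744 and 643 FPKM at E13 and 262, 245 and 225 FPKM at P0 (−1.75 ± 0.33). For these genes E13 library 0 was the highest, and the other E13 libraries still lay above all P0 libraries. Rps6, the subunit phosphorylated downstream of mTOR, had 1619, 1088 and 1285 FPKM at E13 and 524, 488 and 420 FPKM at P0 (−1.46 ± 0.29, adjusted p = 0.000336). Without E13 library 0, 31 of 49 and 27 of 33 genes were called lower. Rps27 itself varied within both ages (1.39, 0.114 and 406 FPKM at E13; 82.1, 61.6 and 1.27 FPKM at P0) and was not called. Ribosomal proteins have many near-identical pseudogenes, so the assignment of reads to single members is uncertain.

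A run of at least 8 pyrimidines lay in this window in 50% of the 36 large-subunit genes with an entry and in 44% of the 25 small-subunit genes, against 13.7% of 27025 genes with an entry. A start at C followed by 5 pyrimidines was found in 16.7% and 24% of them, against 2.05% of all. The search read the transcribed strand only. Among all genes called lower with an entry, 2.05% had that start and 13.1% the run, and among genes called higher 2.11% and 16.2%, so neither feature was more common in lower genes as a whole.

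**Figure D3:**
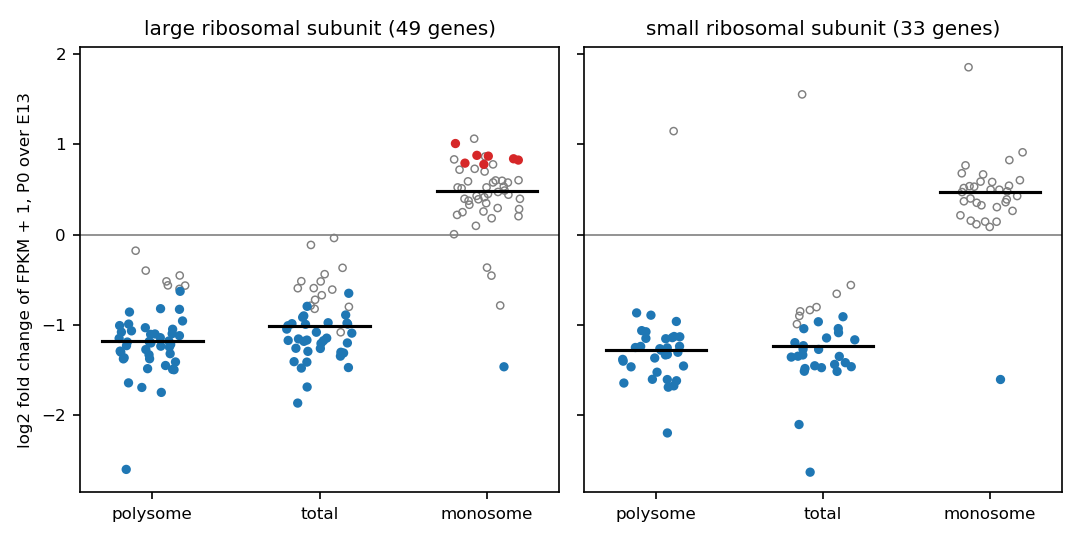
Difference with age (mean log2(FPKM + 1), P0 minus E13) of each cytosolic ribosomal protein gene in cKO polysome, total and monosome RNA, 1 point per gene (red called higher, blue called lower, open grey not called; black bar, median). The medians of both subunits lie at −1.18 and −1.28 in polysome RNA, at −1.01 and −1.23 in total RNA and at 0.49 and 0.47 in monosome RNA.

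The ribosomal protein decrease was present in total RNA and not in monosome RNA. In total RNA 34 of 49 large-subunit genes (median log2 difference −1.01) and 25 of 33 small-subunit genes (−1.23) were lower at P0 and none higher, where the share of all genes called lower was 23.2%. In monosome RNA the medians were positive, 0.49 and 0.47, with 7 members higher and 2 lower, where 26.3% of all genes were called higher and 22.4% lower. The difference between the polysome and monosome effects passed the test for 28 large-subunit and 18 small-subunit genes, all lower in polysome RNA, where 5.31% of all genes were called lower. These counts rest on single libraries: they were 0 and 0 without P0 monosome library 0, 2 and 0 without P0 monosome library 1, 6 and 1 without P0 polysome library 1, 3 and 1 without P0 polysome library 2, and 10 and 4 without E13 monosome library 2. They were 15 and 6 without E13 monosome library 1, 17 and 9 without P0 polysome library 0, 10 for the small subunit without E13 polysome library 0, and 5 and 1 with no filter on low values. The medians of the difference lay between −1.45 and −1.89 under every alternative. Ribosomal protein mRNAs took 37.02% to 48.74% of the monosome FPKM sum. This composition was not corrected. In WT polysome RNA 46 and 32 members were lower, where 31.7% of all genes were called lower. The difference between the genotypes was called for none of the members, where 0.654% of all genes were called. This does not show that the genotypes were equal.

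Translation factors did not move as a block. Of 43 initiation factor genes, 13 were lower and 6 higher (median log2 difference −0.29), and 8 were lower without P0 library 2. Among all genes 26.5% were lower and 30.4% higher. The helicase Eif4a2, the paralog favoured in brain, had 42.6, 55.6 and 50.3 FPKM at E13 and 244, 234 and 201 FPKM at P0 (2.17 ± 0.23). Eif4ebp1, a repressor of cap-dependent initiation that mTOR inactivates, had 25.7, 14.2 and 11.6 FPKM at E13 and 2.29, 3.32 and 2.12 FPKM at P0 (−2.28 ± 0.31), and its paralog Eif4ebp2 changed by −1.64 ± 0.23. The cap-binding protein Eif4e, their target, had 134, 87.2 and 110 FPKM at E13 and 97.0, 108 and 91.7 FPKM at P0 and was not called (adjusted p = 0.637). Among 12 elongation and release factors, 3 were higher and 3 lower, near the shares of all genes. The 2 forms of elongation factor 1α, which bring tRNA to the ribosome, differed. Eef1a2, the form of mature neurons and muscle, had 0.164, 4.18 and 2.68 FPKM at E13 and 76.3, 75.9 and 75.9 FPKM at P0 (4.78 ± 0.43, adjusted p = 4.13e-08). The ubiquitous Eef1a1 had 4065, 4661 and 4155 FPKM at E13 and 3502, 2456 and 2530 FPKM at P0 (−0.62 ± 0.28) and missed the threshold (adjusted p = 0.069), though its ages did not overlap. Of 29 mitochondrial ribosomal protein genes, 11 were lower and none higher (median −0.56).

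Of 32 RNA-binding protein genes of neurons and progenitors, 19 were higher and 5 lower (3 without E13 library 2 or P0 library 2). The neuronal splicing factors Rbfox1 (log2 difference 5.42), Celf4 (3.96), Celf6 (3.10) and Rbfox3 (NeuN, 3.02) rose, the last from 4.61, 6.90 and 5.60 FPKM to 58.4, 56.1 and 45.0 FPKM. Ptbp1, which represses neuronal exons in progenitors, had 80.3, 263 and 141 FPKM at E13 and 31.6, 33.5 and 33.9 FPKM at P0 (−2.09 ± 0.30). The stem cell regulator Msi1 had 122, 138 and 132 FPKM at E13 and 30.6, 24.3 and 28.4 FPKM at P0 (−2.20 ± 0.26). A list of 26 textbook HuR targets held 7 higher and 9 lower members with a median of 0.15, near that of all genes. Among all genes 30.4% were higher and 26.5% lower. Its lower members were led by the cyclins Ccnd1, Ccnb1 (−3.64) and Ccne1 (−3.49), and its higher by Gap43, Myc (2.44) and Fos (1.68). Myc had 1.02, 4.30 and 3.30 FPKM at E13 and 19.04, 18.9 and 17.3 FPKM at P0, against the direction of the cyclins.

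Targets of the let-7 microRNA held the gene with the smallest p of the comparison. let-7 rises as embryonic tissues mature and represses mRNAs of the early embryo, and Lin28 proteins block its processing. In the list of let-7 and Lin28 genes, 7 of 10 tested were lower and 1 higher (median log2 difference −1.31). Of the 10 tested genes, 6 held a match to the let-7 seed in the 3′ end of the transcript used (GENCODE, GRCm38). The lower member Hmga1 held none there. The mature miRNA (RefSeq, GRCm38.p6) and matches in the 6 genes are printed to show what these 6 mRNAs share. Each sequence has 22 bases, with the seed, bases 2 to 8 of the miRNA, and its match in capitals.
let-7a-5p, chr13:48538239-48538260, minus strand: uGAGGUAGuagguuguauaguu
Hmga2, chr10:120364224-120364245, minus strand: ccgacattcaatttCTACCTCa
Hmga2, chr10:120362987-120363008, minus strand: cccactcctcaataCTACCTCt
Hmga2, chr10:120362549-120362570, minus strand: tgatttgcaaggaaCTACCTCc
Hmga2, chr10:120361691-120361712, minus strand: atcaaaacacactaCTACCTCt
Igf2bp1, chr11:95961778-95961799, minus strand: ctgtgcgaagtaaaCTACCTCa
Igf2bp2, chr16:22059473-22059494, minus strand: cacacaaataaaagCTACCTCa
Igf2bp3, chr6:49086787-49086808, minus strand: gcatttttactcaaCTACCTCa
Lin28b, chr10:45381022-45381043, minus strand: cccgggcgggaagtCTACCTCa
Arid3b, chr9:57790361-57790382, minus strand: atttcaataaagctCTACCTCt

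Hmga2 has 4 such sites, as have Igf2bp1 and Lin28b, of which 1 is shown for each of the latter. The Igf2bp genes encode proteins that hold fetal mRNAs in the cytoplasm. Igf2bp2 had 71.5, 39.6 and 67.4 FPKM at E13 and 3.95, 3.35 and 3.04 FPKM at P0 (log2 difference −3.73 ± 0.30). Igf2bp1 had 7.997, 16.7 and 15.3 FPKM at E13 and 0.625, 0.827 and 0.912 FPKM at P0 (−2.95 ± 0.24). Igf2bp3 had 15.4, 19.1 and 18.7 FPKM at E13 and 3.29, 3.77 and 3.04 FPKM at P0 (−2.10 ± 0.20). In all of them each P0 library lay below each E13 library. Arid3b (−1.61 ± 0.22), Hmga1 (−1.01 ± 0.19) and Lin28b (−0.97 ± 0.24) completed the lower members, and Lin28b stood at only 1.61, 0.544 and 1.11 FPKM at E13 and at 0.0146, 0.0708 and 0.0397 FPKM at P0. The higher member was Dis3l2, the nuclease that degrades let-7 precursors (1.26 ± 0.22), while Mycn and Dicer1 were not called.

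The match to the seed, CTACCTC, was counted on the transcribed strand of the annotated 3′ end of 11506 tested genes, together with the AU-rich nonamer TTATTTATT, and the 2 motifs cannot overlap. The seed match lay in 11.4% of 3110 lower genes, 8.89% of 3487 higher genes and 8.84% of 4909 genes not called, or 0.0926, 0.0557 and 0.0672 sites per kilobase. The AU-rich nonamer went the other way, with 5.37%, 9.55% and 7.52%, or 0.0516, 0.0742 and 0.066 sites per kilobase. The lower genes had the highest density of seed matches and the lowest density of nonamers in each of 3 classes of 3′ end length. In the longest class 23.2% of lower and 16.6% of higher genes held a seed match. None of the 26 textbook HuR targets held the seed match and 5 held the nonamer. A match is a description of the sequence and does not show binding.

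Chromatin remodelers showed pairs of paralogs moving in opposite directions. The BAF complex exchanges subunits when progenitors become neurons. Its neuronal subunit Actl6b had 1.94, 10.8 and 10.5 FPKM at E13 and 138, 115 and 103 FPKM at P0 (log2 difference 4.01 ± 0.42), and the progenitor counterpart Actl6a had 74.8, 168 and 125 FPKM at E13 and 19.03, 20.1 and 22.2 FPKM at P0 (−2.45 ± 0.35). Ss18l1, also neuronal, rose from 2.28, 5.19 and 5.78 FPKM to 50.4, 46.6 and 51.0 FPKM (3.28 ± 0.26), while Ss18 fell from 27.6, 28.8 and 29.3 FPKM to 15.8, 17.3 and 15.4 FPKM (−0.79 ± 0.20). Dpf1 (2.00) rose, and Dpf2 (−1.42) and Phf10 (−1.02) fell. For each of these pairs the neuronal form was the lower of the pair at E13 and the higher at P0. Over all 27 BAF genes, 15 were higher and 5 lower. Of 24 polycomb and DNA methylation genes, 4 were higher and 9 lower, the latter led by Cbx2 (−3.45), the maintenance factor Uhrf1 (−3.10) and Eed (−1.84). The 2 methyltransferases of polycomb parted, with Ezh1 at 1.51, 1.86 and 2.07 FPKM at E13 and 7.91, 6.84 and 8.13 FPKM at P0 (1.62 ± 0.23), and Ezh2 changing by −1.32 ± 0.32.

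Glycolysis fell in most members while other housekeeping groups were mostly not called. Of 19 glycolysis genes, 12 were lower and 5 higher (median log2 difference −1.12). Tpi1, a central enzyme of the pathway, had 1084, 1164 and 1035 FPKM at E13 and 219, 236 and 207 FPKM at P0 (−2.30 ± 0.22), and Pgam1 changed by −1.61 ± 0.21. The higher members include the enolase of neurons, Eno2, with 1.67, 3.49 and 2.11 FPKM at E13 and 44.3, 40.5 and 41.8 FPKM at P0 (3.69 ± 0.26), and the hexokinase of brain, Hk1 (3.24 ± 0.30). Hk2, the hexokinase of growing cells, fell (−1.48 ± 0.25). In contrast, 3 of 35 oxidative phosphorylation genes, 3 of 28 proteasome genes and 3 of 18 chaperone genes were called in either direction, below the 56.9% of all genes. These counts moved with single libraries. Without E13 library 1 oxidative phosphorylation had 4 higher and 2 lower genes and chaperones 6 and 1, and without E13 library 0 chaperones had 2 and 3. Without P0 library 1 or 2 oxidative phosphorylation had 1 called gene, as had the proteasome without any 1 P0 library. The median log2 differences of these 3 lists were −0.07, −0.16 and 0.24.

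Most polysome differences had a counterpart in total RNA of the same genotype. In cKO total RNA 6267 genes were called (50.9%), 3417 higher (27.8%) and 2850 lower (23.2%). Of the genes higher in polysome RNA, 2998 were also higher in total RNA, which is 80.2% of the polysome calls and 87.7% of the total RNA calls, and none was lower. Of the lower genes, 2440 were shared, 74.8% and 85.6% of each list, and 4 were called in opposite directions. The age effect in polysome RNA minus that in total RNA was called for none of the 12302 genes by limma (0%), while 684 genes (5.56%) had an unadjusted p under 0.05. The smallest adjusted p was 0.5835, and the median SE of this difference was 0.387 on the log2 scale. Departures well above that SE did not pass either. Lrrn1, at −1.51 ± 0.39, had a limma adjusted p of 0.583, and Bgn, at −1.83 ± 0.49, had 0.607. The absence of calls therefore does not show that the 2 effects were equal. For Camk2b the log2 differences were 6.57 in polysome and 6.84 in total RNA, for Mapt 5.85 and 6.01, and for Hmga2 −7.56 and −6.82.

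Monosome RNA shared fewer calls. In it 5986 genes were called (48.7%), and 2473 of the genes higher in polysome RNA were also higher there (66.1% of the polysome and 76.5% of the monosome calls), with 17 opposite. The lower calls shared 2018 genes (61.9% and 73.2%), with 63 opposite. The polysome effect minus the monosome effect passed the test for 959 genes (7.8%), 306 higher in polysome RNA (2.49%) and 653 lower (5.31%). This count rests on the 2 P0 monosome libraries: without library 1 it was 168 and without library 0 it was 196. It was 347 and 384 without P0 polysome libraries 1 and 2, 546 without E13 monosome library 2, and up to 1142 without other libraries.

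The largest positive differences of this kind included neuronal genes, but neuronal lists did not share a direction. Of 33 axon guidance genes 0 were higher in polysome RNA and 5 lower, and of 13 potassium channel genes 0 and 2. Of 26 neurite cytoskeleton genes 1 was higher and 0 lower. Mapk8ip3, a kinesin adaptor for axonal cargo, had a log2 difference with age of 2.66 in polysome and 0.09 in monosome RNA (difference 2.57 ± 0.39, adjusted p = 0.00175). Dync1i1 differed by 2.50 ± 0.53 (adjusted p = 0.00939), the calcium sensor Vsnl1 by 2.49 ± 0.52 (adjusted p = 0.00882) and the postsynaptic calmodulin binder Nrgn by 2.58 ± 0.71 (adjusted p = 0.0339). Of 23 genes of transmitter release, 6 were higher in this contrast, but 2 without P0 monosome library 1 or P0 polysome library 1, and 3 without P0 monosome library 0 or P0 polysome library 2. The 6 were Snap25 (1.80), Vamp2 (1.76), Stx1a (1.69), Rab3a (1.55), Cplx2 (1.41) and Vamp1 (1.41). Of the 28 named genes called in this contrast, 8 kept their call under every alternative, Mapk8ip3, Vamp2 and Stx1a among them. Nrgn lost it under 10 of 15 alternatives, Cplx2 under 11 of 15 and Vamp1 under 12 of 14 (adjusted p up to 0.16, 0.177 and 0.162). All 10 of these genes rose in polysome RNA; in monosome RNA 8 rose by less, while Mapk8ip3 and Vamp1 (−0.02) were not called. The value for Eef1a1, 13.22, follows from a listing of 0 FPKM in both P0 monosome libraries, against 15387, 12958 and 15650 FPKM in E13 monosomes, and no fold is read from it. On the negative side stood the matrix proteoglycan Bgn (−3.75 ± 0.49, adjusted p = 0.000643), the adult globins Beta-s (−3.46 ± 0.71), Hbb-b1 (−3.30 ± 0.56) and Hba-a1 (−3.13 ± 0.61), and Stac2 (−2.93 ± 0.43). Erythroid genes made up 0.434% to 0.683% of the E13 and 0.0722% to 0.0765% of the P0 monosome sums. Among initiation factors 7 of 43 were lower in this contrast, 6 of them subunits of the large eIF3 complex: Eif3e (−1.95), Eif3m (−1.65), Eif3f (−1.62), Eif3h (−1.55), Eif3i (−1.54) and Eif3k (−1.37), with Eif4b (−1.10). Each of the 7 lost its call under at least 1 alternative, Eif3k under 12 of 15. None of the 43 was called without P0 monosome library 0, 1 without P0 monosome library 1, and 3 without P0 polysome library 1 or 2.

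Longer coding sequences went with higher values at P0. The 96.13% of tested genes with a coding sequence in the annotation were split into 5 classes of equal size. In polysome RNA the median log2 difference was −0.17 for coding sequences of 111 to 741 bases, −0.19 for 744 to 1155 bases, −0.02 for 1158 to 1635 bases, 0.18 for 1638 to 2502 bases and 0.45 for 2505 to 23151 bases. The share of genes called higher rose from 24.03% in the shortest to 42.58% in the longest class, and the share called lower fell from 31.08% to 16.82%. Without ribosomal protein genes the median of the shortest class was −0.13. Total RNA had medians from −0.31 to 0.53 in the same order, and monosome RNA a smaller range, from −0.19 to 0.17. This order is across genes, which are not independent replicates.

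**Figure D4:**
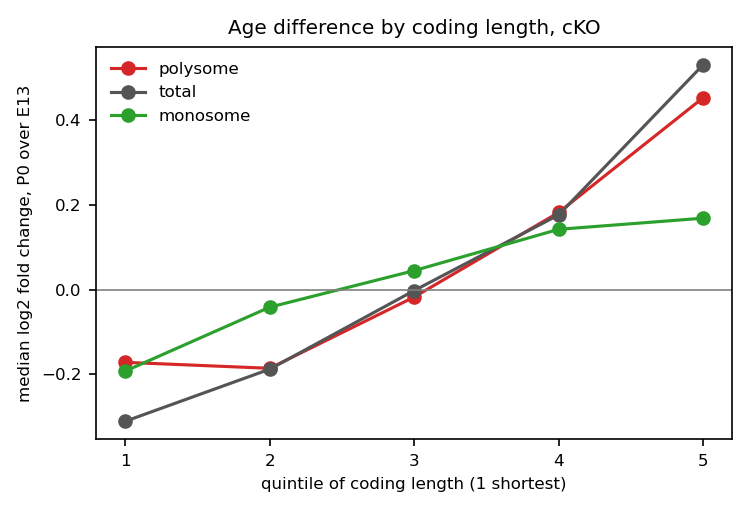
Median difference with age (log2(FPKM + 1), P0 minus E13) of genes in 5 classes of coding sequence length, from shortest to longest, in cKO polysome, total and monosome RNA. From the shortest to the longest class the polysome medians go from −0.17 to 0.45, the total RNA medians from −0.31 to 0.53 and the monosome medians from −0.19 to 0.17.

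The age difference in cKO polysomes was set beside that in WT polysomes, each taken within its own table. In WT, 6552 of 12233 genes were called (53.6%), 2674 higher (21.9%) and 3878 lower (31.7%). Among 12179 genes tested in both, 2464 were higher in both genotypes (66.1% of the cKO and 92.9% of the WT calls) and 2735 lower in both (85.1% and 70.6%), and 8 were called in opposite directions. The cKO effect exceeded the WT effect by a median of 0.23 on the log2 scale over all genes, and by 0.09 after the libraries of each table were rescaled to a common median ratio, so that single differences are to be read against this shift. For Camk2b the log2 difference was 6.57 in cKO and 5.11 in WT (adjusted p of the difference 0.268), for Mapt 5.85 and 4.53 (adjusted p = 0.261), and for Hmga2 −7.56 and −4.77 (adjusted p = 0.0601).

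The difference between the genotypes passed the test for 80 genes (0.654%), 63 with a higher value in cKO (0.515%) and 17 with a lower one (0.139%); after median ratio rescaling it was 13 and 15. The count depended on single libraries. It was 2 without WT E13 library 1, between 7 and 16 without WT P0 library 0 or 1, cKO E13 library 0 or any cKO P0 library, 262 without WT E13 library 0, and 948 without cKO E13 library 1. The 2 WT E13 polysome libraries differed from each other: Neurod6, a factor of young cortical neurons, stood at 98.0 FPKM in library 0 and 318 FPKM in library 1, and Hmga2 at 65.1 and 12.8 FPKM. Their part in the count was not tested beyond leaving each out.

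Aldoc, the aldolase of radial glia and astrocytes, had the largest positive difference. In cKO polysomes it rose from 19.6, 58.4 and 70.0 FPKM to 163, 180 and 170 FPKM (log2 difference 1.96), and in WT its log2 difference was −1.53 (difference 3.49 ± 0.46, adjusted p = 0.000239). Ndrg2, another gene of astrocytes, had 15.8, 28.3 and 28.3 FPKM at E13 and 140, 146 and 145 FPKM at P0 in cKO (2.57), against −0.36 in WT (difference 2.94 ± 0.39, adjusted p = 0.000239). These 2 genes kept their call under every alternative tried, and they were the only named genes of this contrast to do so. Whether they stand for astrocyte genes as a group was not tested. Of 8 astrocyte markers 0 were called in this contrast, where 0.654% of all genes were called, so the count shows little in so short a list. The median difference of these markers, 0.23, equalled the shift over all genes. Sez6 (3.25), Tiam2 (3.07) and Neurod6 (2.96), all expressed in young neurons, completed the 5 largest. Neurod6 had 23.1, 25.7 and 27.0 FPKM at E13 and 566, 447 and 453 FPKM at P0 in cKO, a log2 difference of 4.21 against 1.26 in WT, and without WT E13 library 1 its difference of 2.11 missed the threshold (adjusted p = 0.22). Eomes (2.63) and Neurog2 (1.98), 2 of the 12 markers of intermediate progenitors, also had higher values in cKO, where both fell with age by less than in WT (log2 differences of −3.64 and −5.60 in WT). Low values were those of Hbb-bh1 (−4.81), Hba-x (−3.26), Acp5 (−2.42) and Hsd3b6 (−2.15), and erythroid genes took 1.48% and 1.18% of the WT E13 polysome sums against 2.54% to 5.75% in cKO; their part in these differences was not tested.

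**Figure D5:**
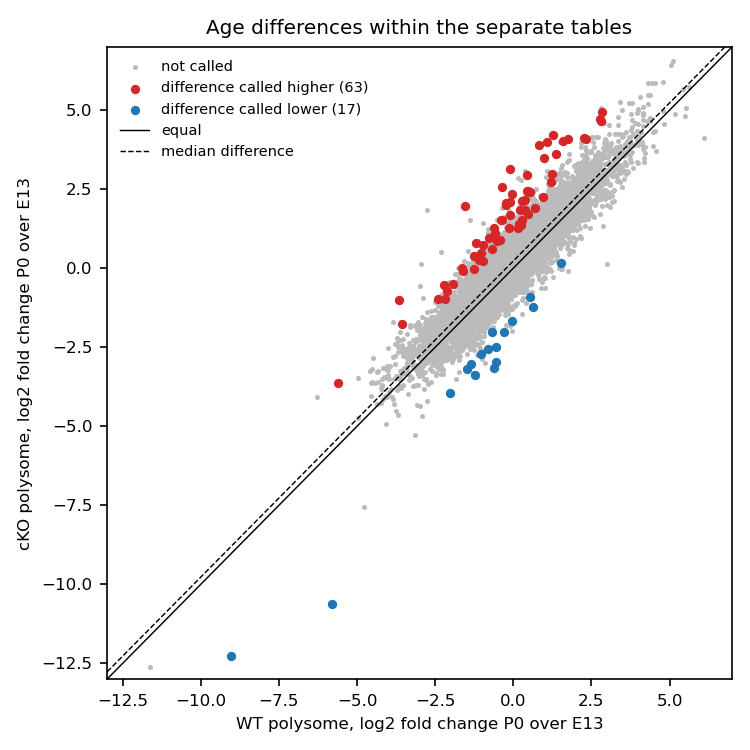
Difference with age in polysome RNA (log2(FPKM + 1), P0 minus E13) in WT (x axis) and cKO (y axis), 1 point for each of the 12233 genes fitted over both tables, with genes whose genotype difference passed the test in colour (red higher in cKO, blue lower). The solid line marks equal differences and the dashed line the median offset of 0.23; Aldoc and Ndrg2 lie on the cKO side at 1.96 and 2.57, with WT values of −1.53 and −0.36.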

How the data were processed

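The authors deposited FPKM values in 1 table per genotype (16 cKO and 15 WT libraries), made with TopHat2 2.0.6, Bowtie2 2.0.5.0 and Cuffdiff on mm10 (GRCm38), per the submitters' processing notes. For the Cuffdiff version, annotation and library scaling the sources used here give nothing. The 26 names altered by spreadsheet software were left out. Genes with a mean of at least 1 FPKM were fitted with limma 3.58.1 (R 4.3.3, intensity trend, two-sided) on log2(FPKM + 1), with all 6 groups of the cKO table in 1 fit. A joint fit of both tables gave only differences between effects taken within each table. The kit does not mark strand, so overlapping genes cannot be told apart, nor can globin or histone paralogs be fully separated. The numbers of the cKO columns (0 to 2) are not those of the titles (1 to 3), so columns were matched to groups only, and no pairing was used.

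Genes and lists were chosen with earlier results of these data known. Named genes are the Elavl family, the 12 largest differences in each direction (a group mean of at least 5 FPKM, ages not overlapping), the 10 most abundant at each age, the 5 largest differences between effects in each direction, and up to 4 members per list and direction by adjusted p (every member of lists under 13 genes). Other genes named, such as Pax6, Sox2, Tbr1, Fezf2, Slc12a2, Eif4e, Slc1a3, Ezh2, Rps27 and members that moved between fractions or genotypes, were chosen after their values were seen, as were the sequence searches. Coding lengths and 3′ ends are from GENCODE M21 transcripts, and start sites from RefSeq. Some genes that the rule names are not reported here. The fits were tested on simulated data. Alternatives were a pseudocount of 0.1 FPKM, no filter, a mean of at least 5 FPKM, median ratio rescaling, polysome libraries only, and each library left out.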

Additional observations from a re-analysis of the deposited data

Results flagged for a closer look

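Genes whose difference with age itself differed between polysome and monosome RNA, tested as an interaction, numbered 959. The 5 largest positive values on the log2 scale were those of Eef1a1 (13.22), Nrgn (2.58), Mapk8ip3 (2.57), Dync1i1 (2.50) and Vsnl1 (2.49). The lowest were those of Bgn (−3.75), Beta-s (−3.46), Hbb-b1 (−3.30), Hba-a1 (−3.13) and Stac2 (−2.93). Mapk8ip3, Bgn, Hbb-b1, Hba-a1 and Stac2 kept their call under every alternative tried. Eef1a1 kept it too, but its value follows from a listing of 0 FPKM in both cKO P0 monosome libraries. The 3 WT P0 monosome libraries also listed Eef1a1 at 0 FPKM, and no fold is read from its value.

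Genes whose difference with age differed between cKO and WT polysomes, tested as an interaction between separately scaled tables, numbered 80. The 5 largest positive values were those of Aldoc (3.49), Sez6 (3.25), Tiam2 (3.07), Neurod6 (2.96) and Ndrg2 (2.94). Low values were those of Hbb-bh1 (−4.81), Hba-x (−3.26), Acp5 (−2.42) and Hsd3b6 (−2.15). Of these 9 genes, Aldoc and Ndrg2 kept their call under every alternative tried.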

How the results depend on the processing

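The read depth is unknown, which limits what low values show. Of the 7000 genes called in cKO polysomes, 87.7% to 99.8% of those tested stayed called across 11 alternatives, and none changed sign; leaving out 1 library gave between 6146 and 6891 calls. The difference between polysome and total RNA had 1 call without a filter. That between polysome and monosome RNA ranged from 168 to 1142 calls when 1 library was left out. That between cKO and WT had 11 calls with a pseudocount of 0.1, 35 without a filter, 28 after rescaling, and 2 to 948 with 1 library left out. The causes were not tested. No paired analysis was possible because the numbers of the deposited cKO columns (0 to 2) are not those of the titles (1 to 3); a replicate block on WT polysome numbers gave 65 calls between cKO and WT. Of lists, aminoacyl-tRNA synthetases went from 6 higher to 2 without E13 library 0, nuclear non-coding RNAs from 4 lower to 2 without E13 library 0, P0 library 0 or P0 library 2 and to 6 with a pseudocount of 0.1, snoRNA hosts from 3 higher to 1 without E13 library 0 or P0 library 0, and extracellular matrix genes from 3 lower to 5 with a pseudocount of 0.1.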

Other observations

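Of 8 neuropeptide genes tested, Npy and Sst among them, 5 were higher at P0. Cholecystokinin (Cck) had 0, 2.74 and 0 FPKM at E13 and 56.7, 52.4 and 36.2 FPKM at P0 (log2 difference 4.97 ± 0.54, limma adjusted p = 3.72e-07), and neurotensin (Nts) had 4.66, 2.93 and 1.91 FPKM at E13 and 96.5, 64.0 and 53.5 FPKM at P0 (4.13 ± 0.27). Signalling by neurotrophins and neural activity had 7 of 15 members higher and 2 lower (1 without E13 library 2 or P0 library 0). Camk4, a calcium-dependent kinase of neurons, had 0.263, 0.331 and 0.177 FPKM at E13 and 7.97, 11.4 and 8.23 FPKM at P0 (3.01 ± 0.28), and the growth factor Igf2 fell from 96.4, 68.9 and 74.3 FPKM to 27.7, 22.6 and 19.6 FPKM (−1.73 ± 0.24). In the mTOR pathway 7 of 16 members were higher and 1, Rps6kb2, lower (−0.77). Pik3r1, a regulatory subunit of PI 3-kinase, had 2.51, 3.44 and 2.67 FPKM at E13 and 31.3, 29.1 and 24.0 FPKM at P0 (2.91 ± 0.24), and Tsc2, which restrains mTOR, changed by 1.38 ± 0.20.

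Of 19 cholesterol synthesis genes, 6 were higher, 4 lower and 9 not called, near the shares of all genes (30.4% higher and 26.5% lower). The enzyme Hmgcs1 had 58.5, 101 and 89.6 FPKM at E13 and 262, 271 and 227 FPKM at P0 (log2 difference 1.63 ± 0.24), while Sc5d had 29.5, 20.1 and 24.4 FPKM at E13 and 13.3, 6.86 and 9.74 FPKM at P0 (−1.25 ± 0.27). Among mural and meningeal markers, Ptgds, a prostaglandin synthase of the meninges, had 4.65, 5.04 and 1.39 FPKM at E13 and 160, 132 and 139 FPKM at P0 (5.06 ± 0.48), and Lum, a collagen-binding proteoglycan, fell from 21.1, 29.5 and 20.7 FPKM to 0.888, 0.978 and 1.20 FPKM (−3.60 ± 0.35). The imprinted non-coding RNAs Peg13 (2.19) and H19 (−2.79) moved apart. Hspb3 and Mctp1 were listed at 0 in all 3 E13 libraries and at 4.97 to 9.08 and 5.78 to 6.70 FPKM at P0, and Hsd3b6 at 5.76 to 19.5 FPKM at E13 and at 0 in all 3 P0 libraries.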
